A study of Homo sapiens with 4 samples.

Results

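The genes described here are 10 components and targets of the Hippo pathway, chosen by symbol: YAP1, WWTR1, TEAD1, TEAD4, CTGF, CYR61, ANKRD1, AMOTL2, LATS1 and LATS2. All 10 were listed for Hep3B and its stem-like culture Hep3B-C. In the files of Huh7 and Huh7-C 9 were listed, without ANKRD1. They stand among 16370 genes listed in either pair. The data were RNA sequencing read counts of 4 human hepatoma cultures with 1 library each. Hep3B and Huh7 are established hepatocellular carcinoma lines and form the HCC group. Stem-like cancer cell cultures derived from them, Hep3B-C and Huh7-C, form the hepatic cancer stem cell (HCSC) group. The culture conditions of the stem-like cells and the time in culture were not given in the sources used here, and no genetic change or drug treatment was named in the labels. Comparisons were made within a lineage, HCSC over parental HCC. With 1 library per line no difference below has a replicate check, and group, culture and library of a pair cannot be told apart. The labels do not say whether libraries came from separate cultures, and within a pair the p-values measure read sampling in 2 libraries, which is partly technical.

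The Hippo pathway is a kinase cascade that restrains tissue growth. The kinases LATS1 and LATS2 phosphorylate the transcriptional co-activators YAP (gene YAP1) and TAZ (gene WWTR1), which are then kept in the cytoplasm or degraded. Unphosphorylated YAP and TAZ enter the nucleus and bind TEAD transcription factors, which carry them to DNA. In liver the pathway is known for its control of organ size and of hepatocyte identity. CTGF, CYR61, ANKRD1 and AMOTL2 are among the target genes most often used as readouts. Control of YAP and TAZ is largely exerted on the proteins, which were not measured here. The symbol TAZ in the files belongs to tafazzin, an unrelated gene, and was not used.

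TEAD factors recognise the 6 bases GGAATG, which read CATTCC on the opposite strand. The 250 bases upstream of a RefSeq start site are shown for 3 target genes, because these had the largest falls among the members in Hep3B-C and because their upstream sequence held that motif. Capitals mark the motif on either strand, and the strand of the gene is printed 5′ to 3′. The windows lie on build GRCh38.p14 at chr6:131951373-131951622 (CTGF, minus strand), chr10:90921088-90921337 (ANKRD1, on the minus strand) and chr3:134374448-134374697 (AMOTL2, on the minus strand).
CTGF: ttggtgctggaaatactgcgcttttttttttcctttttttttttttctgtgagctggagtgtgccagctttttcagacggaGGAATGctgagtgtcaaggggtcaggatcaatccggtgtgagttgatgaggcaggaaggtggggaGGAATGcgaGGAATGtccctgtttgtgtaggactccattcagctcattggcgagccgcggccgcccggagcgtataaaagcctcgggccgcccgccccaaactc
ANKRD1: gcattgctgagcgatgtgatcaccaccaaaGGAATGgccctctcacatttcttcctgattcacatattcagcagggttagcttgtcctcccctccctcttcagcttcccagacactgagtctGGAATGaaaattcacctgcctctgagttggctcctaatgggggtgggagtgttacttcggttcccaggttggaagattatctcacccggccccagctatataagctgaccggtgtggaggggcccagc
AMOTL2: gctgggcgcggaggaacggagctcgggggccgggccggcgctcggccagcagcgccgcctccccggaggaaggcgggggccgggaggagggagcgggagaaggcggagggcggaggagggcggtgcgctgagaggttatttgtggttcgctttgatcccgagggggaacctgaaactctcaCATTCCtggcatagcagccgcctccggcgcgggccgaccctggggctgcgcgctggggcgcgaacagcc

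The CTGF window held 3 motifs, starting 169, 104 and 95 bases upstream of the start site. That of ANKRD1 held 2, at 220 and 128 bases. That of AMOTL2 held 1, at 69 bases, and a second listed start site of AMOTL2 had none. Of 35116 promoter windows of this length, 11.9% held at least 1 copy, 0.94% at least 2 and 0.0826% at least 3. The 3 windows shown were picked for their falls and for holding the motif. Their copies therefore cannot be read as an excess over these shares. Promoters of 7 of the 10 genes were matched, without TEAD1, TEAD4 and the target CYR61. Among the others matched, YAP1 had 1 copy at 162 bases, while the windows of WWTR1, LATS1 and LATS2 had none. A match of 6 letters is a description of the sequence and does not show binding.

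Total gene counts ranged from 2896418 in Hep3B to 4641927 in Hep3B-C. A gene with 3 counts, taken as the smallest level a library could show, stood between 0.646 and 1.04 CPM (counts scaled to the library's total gene count). Each of 9 hepatocyte and hepatoma markers was above that level in every library, and their summed level lay between 26800 and 62700 CPM. Single markers differed widely between the lineages. ALB stood at 19500 CPM in Hep3B and 18500 in Hep3B-C, against 106 in Huh7 and 267 in Huh7-C. AFP stood at 5580 and 905 against 5.73 and 2.77 CPM. FGB went the other way, at 92.5 and 23.5 against 1440 and 756 CPM. Since CTGF and CYR61 are also strongly expressed by fibroblasts, 7 fibroblast markers were examined. Their summed level was 14.5 CPM in Hep3B and 11 in Hep3B-C, against 45.2 in Huh7 and 15.5 in Huh7-C, and 2 or 3 of the 7 had more than 3 counts in a library. COL1A1, a defining collagen of fibroblasts, had 2, 1, 18 and 7 counts in that order. PDGFRB, a receptor of fibroblasts and pericytes, had 28, 45, 186 and 2 counts, and COL3A1 had 58 counts in Huh7-C. DCN was not listed in any of the 4 files. The part of these transcripts in the results below was not tested. Of 5 endothelial markers, 1 had more than 3 counts in each library (PECAM1, with 8, 13, 17 and 93 counts in the same order). Of 3 surface markers of hepatic cancer stem cells, PROM1 went from 371 CPM in Hep3B to 77.8 in Hep3B-C (log2 fold-change -2.25) and EPCAM from 514 to 177 (-1.54). Both were called down, opposite to the stem-like label, and with the GC and length trends described next removed they stood at -0.83 and -1.24. Neither was called in Huh7-C (-0.31 and 0.17), and THY1 had at most 1 count where listed. In cultures measured in bulk, fewer cells of a type and less RNA per cell cannot be told apart.

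Genes were called at an FDR of at most 0.01 (Audic-Claverie test, which sets 2 Poisson counts against each other given the library totals), provided that the log2 fold-change was 1 or more in size. In Hep3B-C against Hep3B, 9 of the 10 genes were down-regulated and 1, TEAD4, was up-regulated. The background was high in this pair, where 30.4% of 15480 genes passed downwards and 13.2% upwards. The median log2 fold-change (HCSC/HCC) of the 10 genes was -1.99, against -0.55 over all genes with at least 20 counts. In Huh7-C against Huh7, 2 of 9 genes were up-regulated, TEAD1 and LATS1, and none was down-regulated. There 4.19% of 14807 genes passed upwards and 4.15% downwards. The median of the 9 genes was 0.38, against 0.06 over all genes. Changes exceeding these limits exceed sampling noise between 2 libraries, which is not the same as a difference between conditions. When a spread between cultures was assumed (a biological coefficient of variation of 0.4), ANKRD1 in Hep3B-C was the only call left among the 10 genes in either pair. Under that spread 1.09% of all genes in Hep3B-C were called down and 0.401% up, with 0.081% and 0.0878% in Huh7-C. The assumed value was smaller than the common one estimated by edgeR over all 4 libraries. That estimate was 0.514 with the parental line as a block and 0.754 without it.

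**Figure D1:**
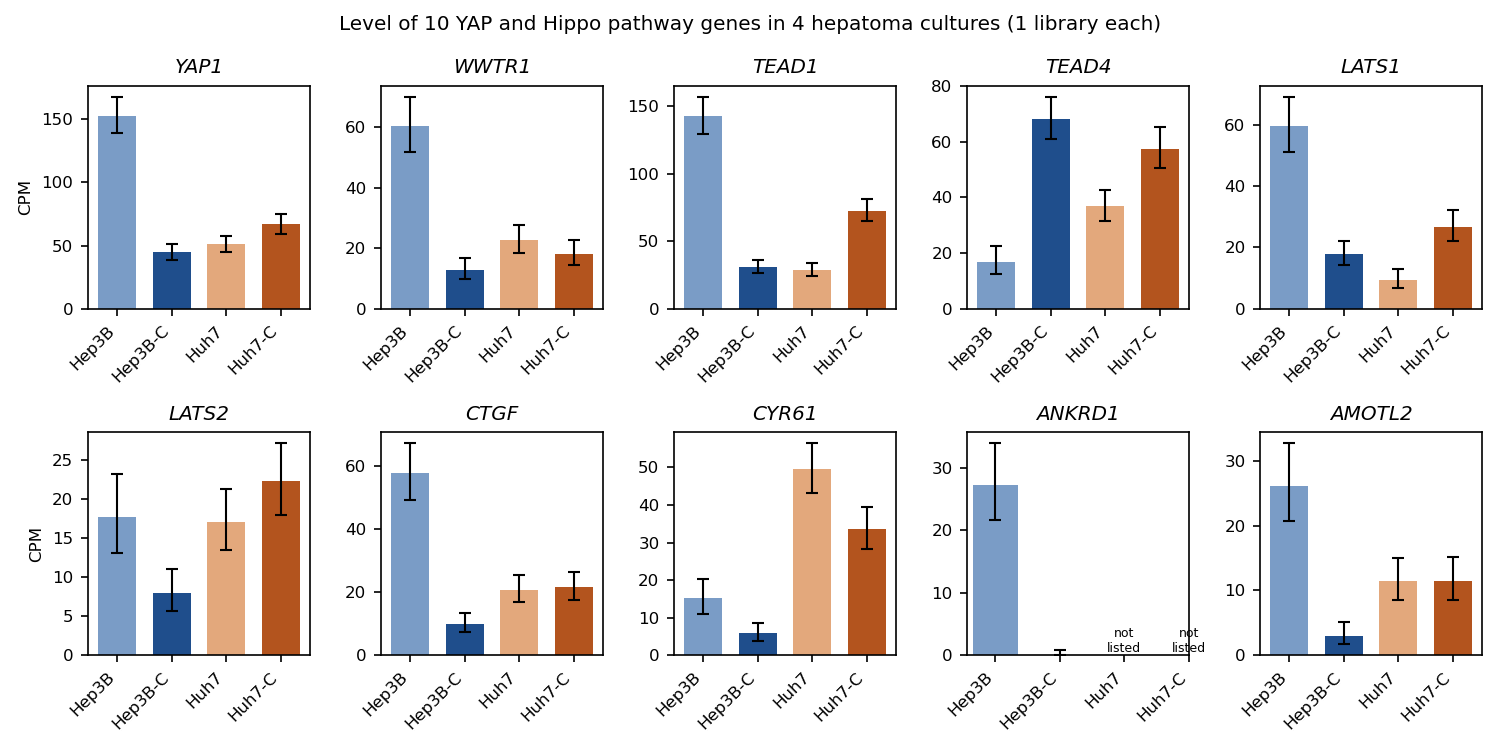
Level of each of the 10 genes in the 4 cultures, in CPM, with bars for single libraries and whiskers for exact Poisson 95% intervals (counting error only). Hep3B is highest for YAP1, WWTR1, TEAD1, LATS1, CTGF, ANKRD1 and AMOTL2, and lowest for TEAD4.

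Fold-changes in Hep3B-C moved with base composition and transcript length. Across 11433 genes they rose with GC content (Spearman 0.628) and fell with gene length (Spearman -0.433). In Huh7-C, across 11134 genes, the coefficients were -0.0645 and 0.315. These are correlations across genes of the same libraries and are given as a description. Long AT-rich genes therefore read low in Hep3B-C, and several of the 10 genes are of this kind. TEAD1 was 9431 bases long with 41.3% GC, LATS1 4755 bases with 39.7% and YAP1 5368 bases with 43.5%, against a median gene of 2951 bases and 48.5%. CTGF (2343 bases, 51.5%) and CYR61 (2291 bases, 50.3%) lay close to the median gene. Each fold-change is accordingly given also after subtraction of the trend fitted jointly on length and GC content.

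With these trends removed, 5 of the 10 genes were called down in Hep3B-C, and none was called up. The background under this rule was 12% of genes down and 11.4% up. The 5 were WWTR1 and the target genes CTGF, CYR61, ANKRD1 and AMOTL2. YAP1, TEAD1, TEAD4, LATS1 and LATS2 were no longer called. The co-activator YAP1, its DNA-binding partner TEAD1 and the kinase LATS1 went to values near 0, and CTGF, CYR61 and AMOTL2 changed little. With the length trend alone removed, the same 5 genes were called down and TEAD4 stayed called up, at 1.87 (background 17.6% and 17.3%). With TMM library sizes (edgeR's scaling by the bulk of genes, which moved the median of all genes from -0.55 to -0.07), 7 genes were down and 1 up (background 20.2% and 19.7%). CYR61 at -0.89 and LATS2 at -0.66 were the members that lost their call.

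**Figure D2:**
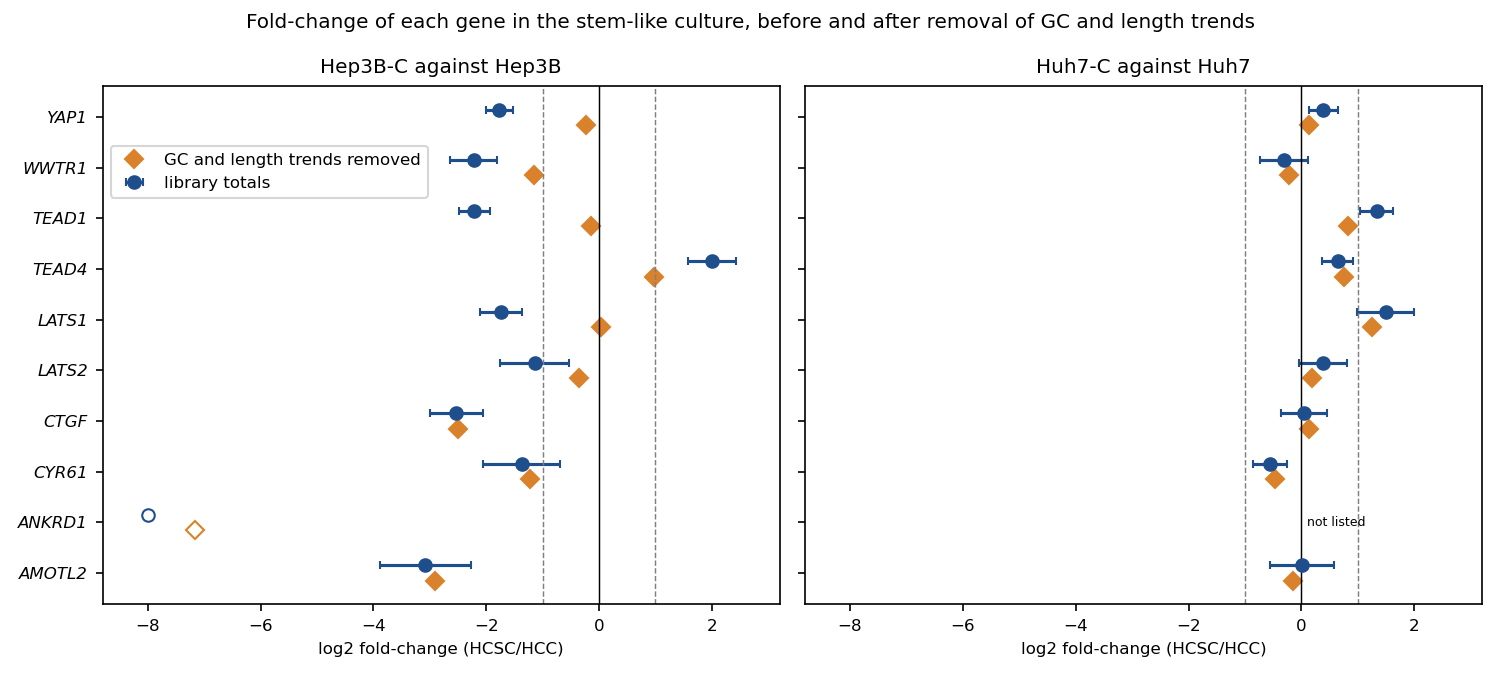
Log2 fold-change (HCSC/HCC) of each gene in the Hep3B pair (left) and the Huh7 pair (right). Circles use library totals with 95% counting intervals, diamonds have GC and length trends removed, open symbols mark ANKRD1 with 0 counts in Hep3B-C (a fitted value, not a bound), and dashed lines mark the fold-change threshold. For CTGF and AMOTL2 in Hep3B-C both symbols stay below -2, whereas for YAP1, TEAD1 and LATS1 the diamonds lie near 0.

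The co-activators are described first. YAP1 (Entrez 10413, GRCh38 chromosome 11, 102110461 to 102233423, on the plus strand) had 443 counts in Hep3B and 208 in Hep3B-C, against 231 in Huh7 and 289 in Huh7-C. These were 153, 44.8, 50.9 and 66.7 CPM. Hep3B thus stood alone at the top, Huh7-C came next, and Huh7 and Hep3B-C had overlapping 95% Poisson intervals (44.6 to 57.9 and 38.9 to 51.3 CPM). YAP1 fell 3.41-fold in Hep3B-C (log2 fold-change -1.77, counting SE 0.12, Audic-Claverie FDR 1.3e-51). With GC and length trends removed its log2 fold-change was -0.23 (FDR 0.1), where 38% of genes had lower values. In Huh7-C it was 0.39 (SE 0.13, Audic-Claverie FDR 0.0091), under the fold-change threshold.

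WWTR1, which encodes TAZ (Entrez 25937, chromosome 3, 149517235 to 149736714, on the minus strand), had 175 counts in Hep3B and 60 in Hep3B-C, against 103 in Huh7 and 79 in Huh7-C. The corresponding levels were 60.4, 12.9, 22.7 and 18.2 CPM, so both HCSC lines were below their parents. Only the fall in Hep3B-C was called (4.65-fold, log2 fold-change -2.22, SE 0.22, Audic-Claverie FDR 2.4e-28). It was still called with the trends removed, at -1.15. In Huh7-C the log2 fold-change of -0.31 had a 95% counting interval from -0.74 to 0.11. Per length, WWTR1 stood at 1.06 times YAP1 in Hep3B (exact binomial 95% interval 0.886 to 1.27) and 0.775 times in Hep3B-C (0.572 to 1.04). The ratio was 1.2 in Huh7 (0.941 to 1.52) and 0.735 in Huh7-C (0.565 to 0.945). The intervals of parent and HCSC line overlapped in each pair, barely so in Huh7, and the lower ratio was found in the HCSC line of both.

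TEAD factors are the DNA-binding arm. TEAD1 (Entrez 7003, chromosome 11, 12674591 to 12944483, on the plus strand) had 413 counts in Hep3B and 143 in Hep3B-C, against 130 in Huh7 and 314 in Huh7-C, or 143, 30.8, 28.7 and 72.5 CPM. Hep3B and Huh7-C were the high libraries, and the intervals of the other two overlapped. TEAD1 was therefore called in opposite directions. It fell 4.62-fold in Hep3B-C (log2 fold-change -2.21, SE 0.14, Audic-Claverie FDR 8e-65) and rose 2.52-fold in Huh7-C (1.34, SE 0.15, FDR 3.2e-19). The fitted trend for a gene of its length and GC content stood at -2.06 in the Hep3B pair and 0.51 in the Huh7 pair. With it removed, -0.15 and 0.83 remained, and neither was called.

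TEAD4 (Entrez 7004, chromosome 12, 2959330 to 3040673, on the plus strand) had 49 counts in Hep3B and 317 in Hep3B-C, against 167 in Huh7 and 249 in Huh7-C. As levels these were 16.9, 68.3, 36.8 and 57.5 CPM, higher in each HCSC line than in its parent. Its rise in Hep3B-C was 4-fold (log2 fold-change 2, SE 0.22, Audic-Claverie FDR 3.1e-25). TEAD4 is short and GC-rich (1777 bases, 60.4% GC), the opposite of TEAD1, and its fitted trend there was 1.03. The remaining 0.97 was just under the fold-change threshold (FDR 8.8e-06). In Huh7-C the ratio of 1.56 (log2 fold-change 0.64, SE 0.14, Audic-Claverie FDR 5.1e-05) was also under the threshold, and the value with trends removed was 0.75.

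TEAD2 and TEAD3 complete the family and were named after their values had been seen. Summed TEAD level per length was 77.8 RPKM in Hep3B and 81 in Hep3B-C, against 56 in Huh7 and 63.9 in Huh7-C (RPKM, CPM divided by the gene length in kilobases). The share of TEAD4 in that sum was 12.2% in Hep3B and 47.5% in Hep3B-C, against 37% in Huh7 and 50.6% in Huh7-C. The sum differed less than its make-up, and TEAD4 had the largest share in every library but Hep3B, where TEAD2 held 49.5%. These sums and shares still carry the length and GC trends. In the Hep3B pair the fitted trend was -2.06 for TEAD1, 0.73 for TEAD2, 0.59 for TEAD3 and 1.03 for TEAD4. Part of the shift from TEAD1 to TEAD4 thus goes with the trends, and the sum was not computed without them. TEAD2 stayed under the fold-change threshold in both pairs (log2 fold-change -0.96 in Hep3B-C and -0.8 in Huh7-C), but in Hep3B-C it passed with the trends removed, at -1.69. TEAD3 was at 0.41 in Hep3B-C, or -0.18 with the trends removed, and at -0.13 in Huh7-C. The ratio of TEAD4 to TEAD1 per length, genes that differ widely in length and GC content, was 0.63 in Hep3B and 11.8 in Hep3B-C, and 6.82 in Huh7 and 4.21 in Huh7-C.

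**Figure D3:**
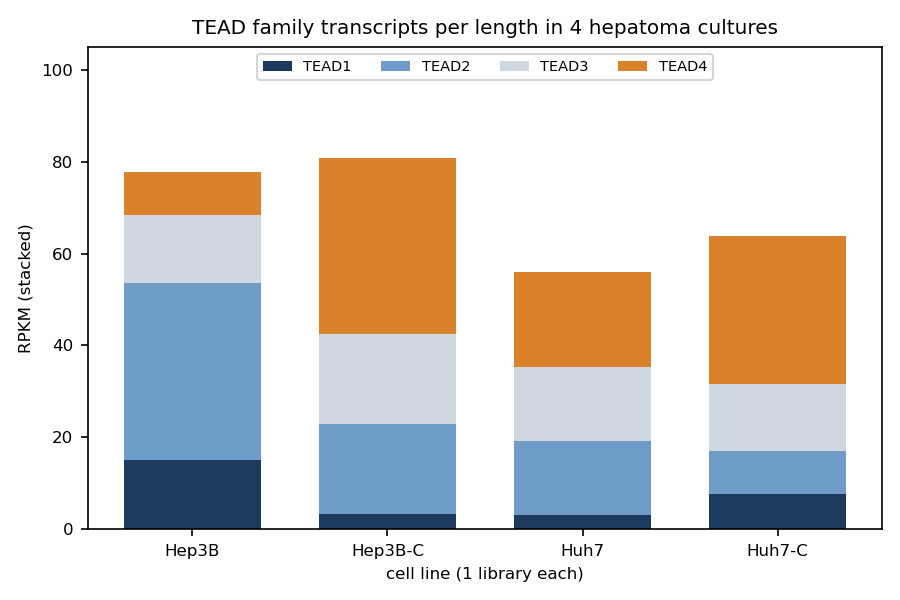
Stacked level of the 4 TEAD genes per length (RPKM) in the 4 cultures, 1 library each. TEAD4 takes 12.2% of the stack in Hep3B and 47.5% in Hep3B-C, against 37% in Huh7 and 50.6% in Huh7-C. GC and length trends were not removed.

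LATS1 and LATS2 are the kinases that act directly on YAP and TAZ. LATS1 (Entrez 9113, chromosome 6, 149658153 to 149718256, on the minus strand) had 173 counts in Hep3B and 83 in Hep3B-C, against 43 in Huh7 and 116 in Huh7-C, or 59.7, 17.9, 9.48 and 26.8 CPM. Its order was that of Hep3B, Huh7-C, Hep3B-C and Huh7. The intervals of Huh7-C (22.1 to 32.1) and Hep3B-C (14.2 to 22.2) overlapped, and the rest were apart. As for TEAD1, the calls were opposite, with a fall of 3.33-fold in Hep3B-C (log2 fold-change -1.74, SE 0.19, Audic-Claverie FDR 2.3e-20) and a rise of 2.8-fold in Huh7-C (1.49, SE 0.26, FDR 1.1e-08). Removal of the trends took the value in Hep3B-C to 0.03 (FDR 0.99), while that in Huh7-C stayed called at 1.25. Among the 9 genes of the Huh7 pair, LATS1 was the only call left under that correction, for which 2.78% of all genes were called up and 4.17% down. With the length trend alone removed it was again the only call (background 2.92% and 4.11%).

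LATS2 is itself a target of YAP and TAZ and so part of a feedback loop. It had 51 counts in Hep3B and 37 in Hep3B-C, against 77 in Huh7 and 96 in Huh7-C (17.6, 7.97, 17 and 22.2 CPM). Hep3B-C was the low library, and the intervals of the other 3 overlapped. The fall in Hep3B-C was 2.2-fold (log2 fold-change -1.14, SE 0.31, Audic-Claverie FDR 0.00043), the smallest among the 9 genes called down. It went to 0.07 with the length trend removed and to -0.35 with both removed. In Huh7-C the value was 0.38 (95% counting interval -0.05 to 0.81). The ratio of LATS2 to LATS1 per length was 0.253 in Hep3B (0.181 to 0.347) and 0.382 in Hep3B-C (0.252 to 0.57), with overlapping intervals. It was 1.54 in Huh7 (1.04 to 2.29) and 0.71 in Huh7-C (0.536 to 0.939), where the intervals did not overlap. The LATS ratios still carry the length and GC trends. For the Hep3B pair these were fitted at -1.77 for LATS1 and -0.79 for LATS2. With the trends removed, LATS2 (-0.35) lay below LATS1 (0.03) in that pair, opposite to their order on library totals, and neither was called. Within the Huh7 pair LATS2 (0.19) stayed below LATS1 (1.25). The ratio itself was not computed without the trends.

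Unlike LATS2, the target genes CTGF, CYR61, ANKRD1 and AMOTL2 stayed called down in Hep3B-C under either trend correction. CTGF encodes a secreted matrix-associated protein of the CCN family (Entrez 1490, chromosome 6, 131948176 to 131951373, on the minus strand). It had 167 counts in Hep3B and 46 in Hep3B-C, against 94 in Huh7 and 93 in Huh7-C, or 57.7, 9.91, 20.7 and 21.5 CPM. The 2 libraries of the Huh7 pair were alike, Hep3B lay above them and Hep3B-C below. The fall in Hep3B-C was 5.77-fold (log2 fold-change -2.53, SE 0.24, Audic-Claverie FDR 9.6e-32), and 8.45% of genes had lower values. With the trends removed it was -2.5, and 3.44% of genes were lower. In Huh7-C the log2 fold-change was 0.05 with a 95% counting interval from -0.36 to 0.46. A 2-fold change of CTGF in either direction thus lies outside the counting interval in that pair.

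CYR61, a second CCN family protein (Entrez 3491, chromosome 1, 85580761 to 85583962, on the plus strand), was the target with a different distribution over the lines. Its counts were 44 in Hep3B and 27 in Hep3B-C, against 225 in Huh7 and 146 in Huh7-C, and its levels 15.2, 5.82, 49.6 and 33.7 CPM. Both Huh7 libraries were above both Hep3B libraries, and each HCSC line was below its parent. The fall in Hep3B-C was 2.59-fold (log2 fold-change -1.37, SE 0.35, Audic-Claverie FDR 0.00013). In Huh7-C the log2 fold-change was -0.56 (SE 0.15, Audic-Claverie FDR 0.0011), under the fold-change threshold and so not called. With the trends removed the values were -1.22 and -0.46. Per length, CYR61 stood at 0.269 times CTGF in Hep3B (0.189 to 0.378) and at 0.6 times in Hep3B-C (0.359 to 0.986). In Huh7 the ratio was 2.45 (1.92 to 3.15) and in Huh7-C 1.61 (1.23 to 2.11). CTGF was thus the more abundant CCN transcript in the Hep3B lineage, and CYR61 in the Huh7 lineage.

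ANKRD1 encodes an ankyrin repeat protein of muscle and nucleus (Entrez 27063, chromosome 10, 90912096 to 90921276, on the minus strand). It had 79 counts in Hep3B (27.3 CPM, 95% Poisson interval 21.6 to 34) and 0 in Hep3B-C (interval 0 to 0.795 CPM). Against the floor of 3 counts, 0.646 CPM in Hep3B-C, the fall was 42.2-fold, a value that depends on that floor. ANKRD1 differed between the 2 libraries at an Audic-Claverie FDR of 9.3e-33. It is not listed for Huh7 or Huh7-C, whose files hold genes with at least 1 count in the pair, and was not analysed there. AMOTL2, an angiomotin family scaffold that binds YAP and is induced by it (Entrez 51421, chromosome 3, 134355874 to 134375479, on the minus strand), had 76 counts in Hep3B and 14 in Hep3B-C, against 52 in Huh7 and 50 in Huh7-C. Its levels were 26.2, 3.02, 11.5 and 11.5 CPM. Like CTGF, AMOTL2 was level within the Huh7 pair, high in Hep3B and low in Hep3B-C. It fell 8.46-fold in Hep3B-C (log2 fold-change -3.08, SE 0.41, Audic-Claverie FDR 1.4e-18), or -2.9 with the trends removed. Removal of the length trend alone took it to -1.97. In Huh7-C the log2 fold-change was 0.01 (95% counting interval -0.55 to 0.57).

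Within a library, the ratio of a target to its co-activator does not depend on library size. CTGF stood at 0.864 times YAP1 per length in Hep3B (0.718 to 1.03) and at 0.507 times in Hep3B-C (0.36 to 0.7), intervals that did not overlap. In Huh7 it was 0.932 (0.726 to 1.19) and in Huh7-C 0.737 (0.577 to 0.934), which overlapped. CYR61 stood at 0.233 times YAP1 in Hep3B and 0.304 times in Hep3B-C, with overlapping intervals, and went from 2.28 (1.89 to 2.75) in Huh7 to 1.18 (0.963 to 1.45) in Huh7-C, which did not overlap. The ratios still carry the length and GC trends, since YAP1 is longer and richer in AT than either target.

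The rest of the pathway was described with a list of 35 Hippo regulators and a published signature of YAP and TAZ targets, of which 17 were not among the 10 genes. Among 34 regulators listed in the Hep3B pair, 18 were called down, 2 up and 14 were not called (background 30.4% down, 13.2% up). Their median log2 fold-change was -1.04 against -0.55 over all genes, and 0.02 against 0.07 with the trends removed, when 8 were called down and 5 up (background 12% and 11.4%). Among 33 in the Huh7 pair, 4 were called up and none down, with a median of 0.04 against 0.06 (background 4.19% up, 4.15% down). Of 15 other targets listed in the Hep3B pair, 10 were called down and none up. The median of the 12 targets with at least 20 counts was -1.96, with CCDC80 at the floor of 3 counts or at its fitted value. With the trends removed it was -1.46, and 8 were called down and 1, NT5E, up (background again 12% and 11.4%). Of 16 in the Huh7 pair, 2 were called up and 2 down, beside 4.19% and 4.15% of all genes, and the median was 0.03. The lists were chosen with earlier results of these data known, so their counts are a description.

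**Figure D4:**
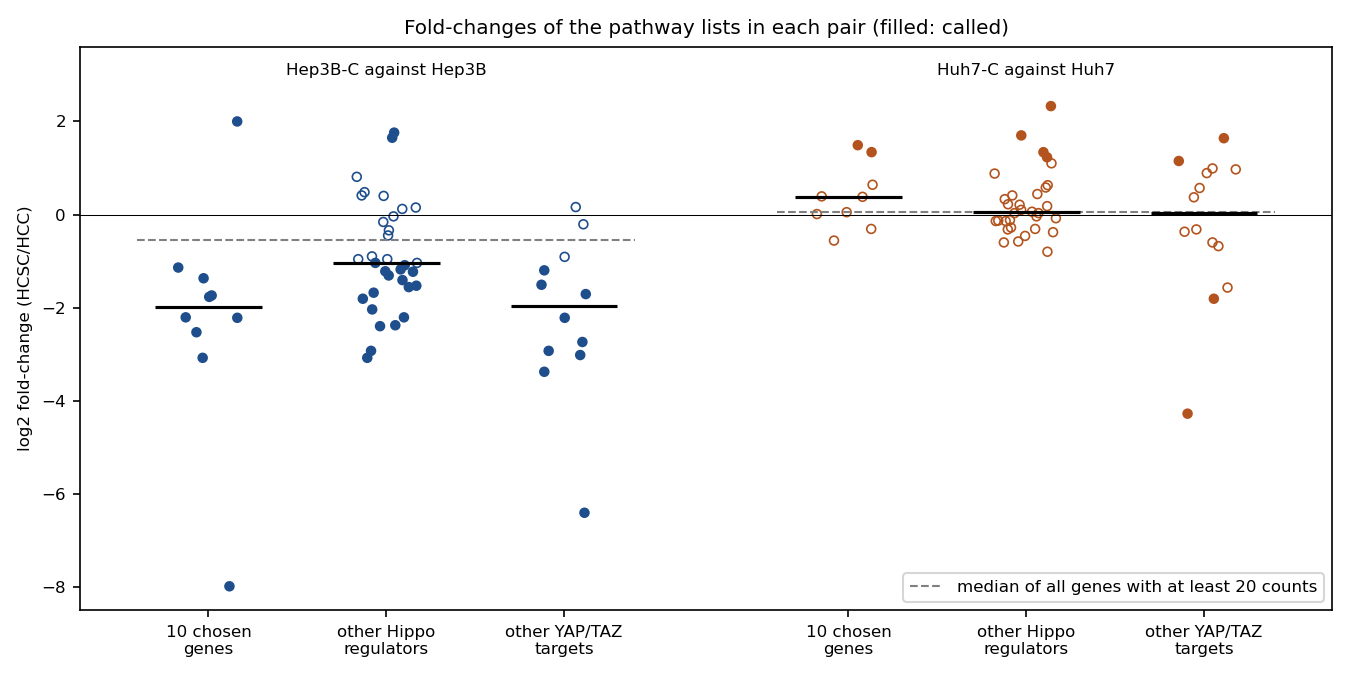
Log2 fold-change (HCSC/HCC) of the 10 genes, the other Hippo regulators and the other YAP/TAZ targets, for genes with at least 20 counts in a pair. Points are genes, filled where called, black bars are list medians and dashed lines the median of all genes (-0.55 in the Hep3B pair, 0.06 in the Huh7 pair).

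The upstream core of the cascade consists of the kinases STK3 and STK4 (MST2 and MST1), their adaptor SAV1 and the LATS cofactors MOB1A and MOB1B. These were named after their values had been seen. All 5 were called down in Hep3B-C, against 30.4% of all genes, from -1.04 for SAV1 (36 and 28 counts in Hep3B and Hep3B-C) to -1.68 for MOB1B (173 and 86 counts), and none was called in Huh7-C. With the trends removed they lay between -0.01 for MOB1A and 0.65 for MOB1B, and none was called. FRMD6 (76 and 14 counts, log2 fold-change -3.08), an upstream FERM domain protein, had the largest change in Hep3B-C among 33 regulators with at least 20 counts and was still called at -1.42. TAOK1, a kinase upstream of MST and LATS, followed TEAD1 and LATS1 in having opposite calls. It had 334 counts in Hep3B and 70 in Hep3B-C, against 44 in Huh7 and 138 in Huh7-C (-2.93 and 1.7), and both were called with the trends removed (-1.15 and 1.48).

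SCRIB, a polarity scaffold that holds Hippo kinases at cell junctions, was the only regulator called in the same direction in both pairs. It rose from 185 to 1007 counts in Hep3B-C (3.39-fold, log2 fold-change 1.76, SE 0.12) and from 197 to 443 in Huh7-C (2.35-fold, 1.23, SE 0.12). With the trends removed the values were 1.25, still called, and 0.91, under the fold-change threshold. The other regulator up in Hep3B-C was PPP2R1A, a scaffold subunit of phosphatase PP2A (393 to 1983 counts, 1.65). In Huh7-C the regulators called up were, besides SCRIB, TAOK1, AMOTL1 (5 to 26 counts, 2.33) and the LIM protein WTIP (25 to 61 counts, 1.34). PPP2R1A and WTIP were named after their values had been seen. AMOTL1, an angiomotin like AMOTL2, was called down in Hep3B-C at -1.18 (198 to 140 counts), a value that turned to 0.26 with the trends removed.

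Targets outside the 10 genes that were called down in both pairs were IGFBP3, which binds insulin-like growth factors, and the cytokine TGFB2. IGFBP3 had 639 counts in Hep3B and 220 in Hep3B-C, against 6720 in Huh7 and 1834 in Huh7-C. It fell 4.65-fold (log2 fold-change -2.22, SE 0.11) and 3.5-fold (-1.81, SE 0.04), and was called in both with the trends removed (-1.84 and -1.76). TGFB2 had 14, 2, 30 and 1 counts in that order, with log2 fold-changes of -3.22 (95% counting interval -5.15 to -1.28) and -4.28 (-6.64 to -1.91). With the trends removed its call in Hep3B-C was lost (-1.34, Audic-Claverie FDR 0.23). Further large falls in Hep3B-C were those of CCDC80, of PTPN14, a phosphatase that binds YAP, and of CRIM1. CCDC80 went from 26 to 0 counts, 13.9-fold against the floor of 3 counts. PTPN14 went from 74 to 11 (-3.38) and CRIM1 from 68 to 13 (-3.02). PTPN14 and CRIM1 were still called with the trends removed, at -2.22 and -1.8. In Huh7-C they went from 28 to 50 and from 76 to 108 counts and were not called. The targets called up in Huh7-C were MYOF, a membrane repair protein (421 to 895 counts, 1.15), and NT5E, the ectonucleotidase CD73 (40 to 120 counts, 1.64), both named after their values had been seen. MYOF was called down in Hep3B-C, from 54 to 11 counts (-2.93), and its call in Huh7-C was lost with the trends removed (0.85). NT5E was not called in Hep3B-C (411 to 735 counts, 0.16), but with the trends removed it was called up in both pairs, at 1.37 and 1.52.

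The pairs were then set side by side. The log2 fold-change in Hep3B-C was below that in Huh7-C for 8 of the 9 genes listed in both, and above it for TEAD4. All genes with at least 20 counts leaned the same way, with medians of -0.55 in Hep3B-C and 0.06 in Huh7-C. With GC and length trends removed those medians were 0.07 and 0.03. The share of all genes lower in Hep3B-C was not computed. Differences (Hep3B-C minus Huh7-C) ran from -3.54 (counting SE 0.21) for TEAD1 to 1.36 (SE 0.26) for TEAD4. For CTGF the difference was -2.58 (SE 0.32) and for CYR61 -0.82 (SE 0.38). With GC and length trends removed the signs were the same, but the differences of TEAD1 (-0.98), YAP1 (-0.37), LATS1 (-1.22), LATS2 (-0.54), WWTR1 (-0.93) and TEAD4 (0.22) were smaller in size. Those of AMOTL2 (-2.75) and CTGF (-2.64) then became the largest. These SEs cover counting error only, and without replicate libraries the differences were not tested.

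A joint fit over all 4 libraries asked whether HCSC differed from HCC by more than that difference varied between the pairs. In edgeR's quasi-likelihood test with the parental line as a block, 9 of the 10 genes could be tested and none was called at an FDR of 0.01. At an unadjusted p under 0.05 none passed either, and DESeq2 called none of them. ANKRD1 was removed by the filter on low counts. Without that filter, and with the Huh7 pair taken as 0 counts, it had an edgeR p of 9.1e-05 and an adjusted p of 0.071. All counts of ANKRD1 came from 1 library, Hep3B. Over all genes edgeR called 3 of 11691 (0.0257%), with 1 residual degree of freedom. The largest log2 fold-changes among the 9 were 1.48 for TEAD4 (edgeR p 0.096, adjusted p 1) and -1.34 for AMOTL2 (edgeR p 0.17, adjusted p 1). CTGF stood at -1.07, WWTR1 at -1.1, YAP1 at -0.52 and TEAD1 at -0.27. TEAD4 and WWTR1 had the same sign in both pairs, as had CYR61 at -0.79.

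Genes whose profile over the 4 libraries was most like that of YAP1 or CTGF were sought among 9908 others by the distance between centred log2(CPM + 1) values. For YAP1 these were XIAP (distance 0.027), C4orf41 (0.0615) and SH2D4A (0.0785). XIAP, an inhibitor of apoptosis, had 253 counts in Hep3B and 119 in Hep3B-C, against 129 in Huh7 and 163 in Huh7-C. For CTGF they were TMX3 (0.0889), KATNAL1 (0.11) and MYO6 (0.12). Profiles of 4 points are easily alike, and 529 genes lay within 0.5 of YAP1 and 193 within 0.5 of CTGF.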

How the data were processed

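For Hep3B, Hep3B-C, Huh7 and Huh7-C, 1 mRNA library each, made from total RNA per the labels, was run on the Illumina Genome Analyzer II platform. The authors filtered adapter and low-quality reads, aligned the rest to an earlier NCBI human assembly with NextGENe and counted reads per transcript. The deposited values were raw read counts per gene with the gene length in bases. The annotation, strand setting and handling of reads with several matches were not given in the sources used here, so reads of overlapping or antisense genes cannot be told apart.

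Groups and parental lines were taken from the labels. Genes were joined by ID. CPM and RPKM were computed from the total gene count, and fold-changes with 0.5 added to each count. Exact Poisson, binomial and SE values cover counting error only. Each pair was compared with the Audic-Claverie test (tail doubled), with Benjamini-Hochberg adjustment over all 15480 or 14807 genes. The parental line pairs the samples, since an HCSC line comes from the same cell line as its parent. Deviations from group means correlated at 0.532 across 12614 genes. The joint fit used edgeR 4.0.16 (TMM, filterByExpr, block), with genes missing from a pair taken as 0 counts. Trends on log length and GC content (GENCODE v29, 1 transcript per gene, known for 99.2% of genes) were fitted by loess with span 0.5 over genes with at least 20 counts, and entered the test as an offset. Scripts ran in R 4.3.3 and Python 3.11.15 and were tested on simulated data. Gene positions are those of GENCODE on GRCh38, and promoters those of RefSeq (GRCh38.p14). Both serve as annotation, because the alignment used an older assembly.

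The 10 genes and the lists were chosen with earlier results of these data known. Named list genes were those called alike in both pairs and, per pair, the 4 with the largest change among those with at least 20 counts in a library; others were named after their values had been seen. For YAP1 and CTGF the 3 nearest profiles among genes with at least 50 counts in a library were named. Of the lists, VGLL1 and RBMS3 were not matched. Alternatives were TMM, DESeq2 1.42.0 size factors, a minimum of 10 counts, 5 added to each count, an exact binomial test, an assumed coefficient of variation of 0.4 in edgeR's exact test, and removal of the trends.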

Additional observations from a re-analysis of the deposited data

Results flagged for a closer look

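Of the 9 genes listed in both pairs, 6 had log2 fold-changes (HCSC/HCC) of opposite sign in the 2 lines, lower in Hep3B-C in each case. With 1 library per line that contrast between lines was not tested. Of all genes with at least 20 counts, 7117 of 11433 lay below 0 in Hep3B-C and 6000 of 11134 above 0 in Huh7-C. With GC and length trends removed these counts were 5380 and 5832. The share of all genes with opposite signs was not computed under either setting, so the 6 genes are a description only. Differences (Hep3B-C minus Huh7-C) were -2.16 for YAP1, -3.54 for TEAD1, -2.58 for CTGF, -3.09 for AMOTL2, -3.22 for LATS1 and -1.52 for LATS2. For TEAD1 and LATS1 the change was called in each line. With GC and length trends removed, TEAD1 was called in neither (-0.15 and 0.83), and LATS1 (0.03 and 1.25) and AMOTL2 (-2.9 and -0.15) had the same sign in both lines, which left 4 genes of opposite sign. On library totals, the change of YAP1, CTGF, AMOTL2 and LATS2 was called in Hep3B-C only, and the values in Huh7-C for CTGF (0.05) and AMOTL2 (0.01) are within counting error of 0.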

How the results depend on the processing

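In Hep3B-C, the counts of the 10 genes called down and up (9 and 1) were unchanged with a minimum of 10 counts, 5 added to each count or an exact binomial test. With TMM or DESeq2 size factors 7 were called down and 1 up. With the length trend removed 5 were called down and 1 up, and with GC and length trends removed 5 were called down and 0 up. At an assumed coefficient of variation of 0.4, 1 was called down and 0 up. The background moved as well. Over all genes of that pair 30.4% were called down and 13.2% up on library totals. The shares were 20.2% and 19.7% with TMM, 17.6% and 17.3% with the length trend removed, and 12% and 11.4% with both removed. With DESeq2 size factors 3015 of 15480 genes were called down and 3164 up. At the assumed spread the shares were 1.09% and 0.401%. The other Hippo regulators called down (18) became 17 with 5 added to each count or an exact binomial test, and 10 with TMM or DESeq2 size factors. They became 7 with the length trend removed, 8 with both trends removed and 0 at the assumed spread. Regulators called up (2) became 3 with TMM or DESeq2 size factors, 6 with the length trend removed, 5 with both and 0 at the assumed spread. Other targets called down (10) became 9 with TMM, 8 with DESeq2 size factors, 7 with the length trend removed, 8 with both and 1 at the assumed spread. Targets called up (0) became 2 with the length trend removed and 1 with both. In Huh7-C, genes called up (2) became 1 under either trend correction and 0 at the assumed spread. Over all genes of that pair 4.19% were called up and 4.15% down on library totals. The shares were 2.92% and 4.11% with the length trend removed, 2.78% and 4.17% with both, and 0.0878% and 0.081% at that spread. Of 14807 genes 553 were called up and 660 down with TMM, and 516 and 696 with DESeq2 size factors. With a minimum of 10 counts 630 and 617 of 11951 were called. There the regulators called up (4) became 3 with both trends removed and 0 at that spread. The other targets called up (2) became 1 under either trend correction and 0 at that spread. Targets called down (2) became 3 with TMM, DESeq2 size factors or a minimum of 10 counts, and 0 at that spread.

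Directions turned as follows. In Hep3B-C with both trends removed, LATS1 went to 0.03, STK3 to 0.11, STK4 to 0.32, SAV1 to 0.18, MOB1B to 0.65, AMOTL1 to 0.26 and TEAD3 to -0.18. With the length trend removed, LATS2 went to 0.07, STK4 to 0.02 and AMOTL1 to 0.49. In Huh7-C, CTGF went to -0.01 with DESeq2 size factors. AMOTL2 there went to -0.03 with TMM, -0.05 with DESeq2 size factors, -0.2 with the length trend removed and -0.15 with both removed.

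In the joint fit none of the 10 genes was called under any alternative, with or without the replicate block. At an unadjusted edgeR p under 0.05, ANKRD1 passed with no filter (p 9.1e-05, adjusted p 0.071). All of its 79 counts came from Hep3B, with Huh7 and Huh7-C taken as 0, so that value rests on 1 library. The same library carried its log2 fold-changes of -9.52 without Huh7, -8.57 without Hep3B-C and -8.54 without Huh7-C. TEAD4 stood at 2.23 without Huh7. All genes called (3) became 8 with no filter on low counts, 0 with no replicate block, 13 with GC and length offsets and the block, and 7 with DESeq2 and the block. With 1 library left out and no block they were 0 to 1. LATS1 (0.03) turned to -0.14 with library totals and to -0.41 with no replicate block. With GC and length offsets and the block, YAP1 turned to 0.26, TEAD1 to 0.65 and LATS2 to 0.22. Without Hep3B, YAP1 turned to 0.17 and TEAD1 to 0.87. Without Huh7, CYR61 turned to 0.63, LATS1 to -1.11 and LATS2 to 0.06. Without Hep3B-C, CYR61 turned to 0.07, LATS1 to -0.2 and LATS2 to 0.44. Without Huh7-C, LATS1 turned to -0.59.

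Low counts limit AMOTL2 (14 counts) and CYR61 (27 counts) in Hep3B-C, and the spread between cultures was not measured. The cause of these shifts was not tested.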
